A study of Mus musculus with 2 samples.

Results

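E2F and DP genes code for a small family of transcription factors and their dimer partners, and the list of E2F1 peaks from mouse hepatocytes was read here for peaks at these genes. The family was taken as the 10 genes E2f1 to E2f8, Tfdp1 and Tfdp2. A gene counted as having a peak where the authors' table names its symbol for one. Of these 10 genes 4 were named, for 5 peaks in all, out of 5667 peaks and 5587 gene symbols in the list. Genes of the family that are not named count as having no listed peak.

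The study used primary hepatocytes, which make up most of the liver, from mice of strain C57Bl6J. All cells had received the adenovirus Ad-E2F1 and were harvested 36 h after infection, so E2F1 overexpression is shared by both records of the series. One record is DNA pulled down with an anti-E2F1 antibody (chromatin immunoprecipitation followed by sequencing, ChIP-seq), and the other is input chromatin with no antibody. The series text gives 2 replicates, each combined from 2 ChIPs, but the list has no column for them, so the values below have no replicate error and no test between samples was possible. The labels give neither the promoter of the vector nor the species of its E2F1, and cells without the vector were not analysed here. A peak list holds no RNA levels, so hepatocyte markers could not be checked and nothing is known here of which E2F genes these cells transcribe.

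E2F proteins control genes of S phase entry by binding promoter DNA, most of them as dimers with a DP protein. E2f1, E2f2 and E2f3 code for the members known as activators. E2f4 and E2f5 code for repressors that work with pocket proteins, the family of the retinoblastoma protein, and E2f6 for a repressor that works with a Polycomb complex. E2f7 and E2f8 code for atypical repressors that bind DNA without a DP partner. Several E2F genes are known to be E2F targets, which makes the family a feedback circuit.

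The family had promoter peaks at an activator gene, an atypical repressor gene and a DP gene. The 3 genes were E2f3, E2f7 and Tfdp2, with fold enrichments over input of 27.33, 7.72 and 3.05. The fold is the authors' enrichment of ChIP signal over the input background, from their peak caller, MACS. It is not the tag count of the called region divided by input. Some listed peaks with the same fold and the same height of the read pileup differed in tags. Peaks were counted at a promoter where the summit was at most 1000 bp from a transcription start site (TSS). By this rule 3 of 10 family genes (30.0%) had one, beside 13.1% of 21896 protein-coding genes. Any listed peak was found at 4 of 10, beside 24.7% of protein-coding genes. At a false discovery rate of at most 1%, a promoter peak was found at 2 of 10 family genes, E2f3 and E2f7, beside 8.02% of protein-coding genes. With 10 genes these counts describe the family and were not tested.

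The strengths of the 3 promoter peaks lay far apart. The E2f3 fold was 3.54 times that of E2f7, which was 2.53 times that of Tfdp2. Over all 2612 promoter peaks the median fold was 6.48, with quartiles of 4.87 and 9.32. E2f3 thus stood above the upper quartile, E2f7 between the median and the upper quartile, and Tfdp2 below the lower quartile. The remaining peaks, upstream of E2f2 and past the end of E2f3, had folds of 3.44 and 3.64, close to that of Tfdp2.

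**Figure D1:**
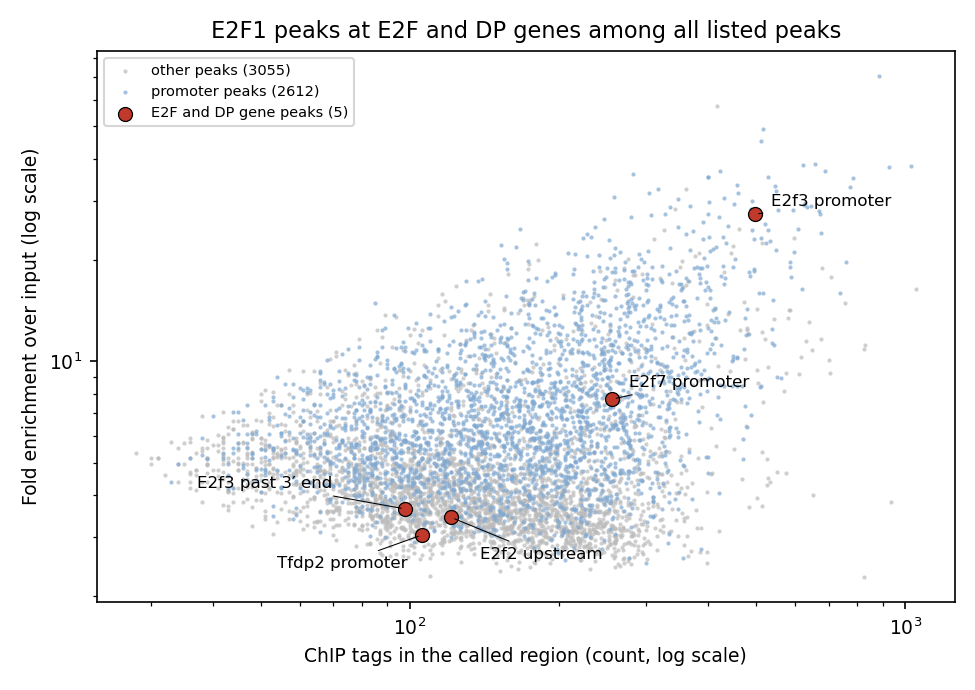
Fold enrichment over input against the number of ChIP tags in the called region for all 5667 listed peaks, both on log scales, with promoter peaks in blue, other peaks in grey and the 5 peaks at E2F and DP genes in red. The E2f3 promoter peak, with 496 tags and a fold of 27.33, lies in the upper right of the cloud, and the peaks at Tfdp2, E2f2 and the end of E2f3 lie in its lower part with folds of 3.05 to 3.64.

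Among the activators, E2f3 (ENSMUSG00000016477) had the strongest peak of the family. Its 301 bp window around the summit lay on chromosome 13 from 30077795 to 30078095 (mm9). The called region, from 30077148 to 30080328, held 496 tags, and the pileup of reads reached a height of 241. The false discovery rate of the caller was 0%, a value shared by 256 (4.52%) of the listed peaks. By fold the peak ranked 44 among all 5667 peaks and 41 among the 2612 promoter peaks. By tags it ranked 47 and by height 61 among promoter peaks, so all 3 measures placed it near the top. These measures come from the same reads and are not independent of each other. The height per 100 tags was less extreme, 48.6 against a median of 41.4 for promoter peaks, and 64.7% of promoter peaks had a lower value.

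The summit lay 408 bp upstream of the TSS that the authors used for E2f3. The called region was 3181 bp long, longer than 88.1% of promoter peaks, and 74.9% of it lay upstream of the summit. It reached 2383 bp upstream and 797 bp downstream of the summit, so this TSS lay inside it. E2f3 is known to be transcribed from a pair of starts, the outer one giving E2F3a and the inner one E2F3b. The labels and file headers do not say which of them the authors' distance refers to.

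Both starts are in RefSeq, and their promoters are shown because the strongest peak of the family lay at this gene. Each sequence runs 5′ to 3′ from 250 bases before to 50 bases after the start, in build GRCm38.p6, which is not the build of the peaks. The outer start is at chr13:29986014-29986313 and the inner one, 1673 bp inside the gene, at chr13:29984342-29984641, both on the minus strand. Capitals mark E2F letters, that is TTTCCCGC, TTTGGCGC, TTTGCCGC or TTTCGCGC, or the same letters without the first T, on either strand.
E2f3 outer start: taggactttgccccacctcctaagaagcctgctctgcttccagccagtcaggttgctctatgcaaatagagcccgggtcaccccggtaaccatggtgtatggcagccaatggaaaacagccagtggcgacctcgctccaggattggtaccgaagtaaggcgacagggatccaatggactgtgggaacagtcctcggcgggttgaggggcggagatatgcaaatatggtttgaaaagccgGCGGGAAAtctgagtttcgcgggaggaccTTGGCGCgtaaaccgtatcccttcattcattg
E2f3 inner start: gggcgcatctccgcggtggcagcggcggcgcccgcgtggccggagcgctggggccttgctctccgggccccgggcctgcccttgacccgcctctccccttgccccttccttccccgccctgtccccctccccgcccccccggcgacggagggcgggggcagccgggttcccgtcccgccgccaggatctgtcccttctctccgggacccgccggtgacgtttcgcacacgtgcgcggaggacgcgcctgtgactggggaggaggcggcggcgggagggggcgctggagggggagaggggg

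The outer start held 2 matches to the 7-letter forms, from 11 to 5 bases before the start and from 19 to 25 bases after it. The first of them extended to an 8-letter match, TTTCCCGC on the opposite strand. The inner start held none of these letters. Of 32851 RefSeq promoters of the same length, 9.6% held a 7-letter form and 2.3% an 8-letter form, and 1.18% held at least 2 matches to the 7-letter forms. Every 8-letter match contains a 7-letter one. The outer start also held 3 CCAAT boxes (CCAAT, in 37.4% of promoters), 1 GC box (GGGCGG, in 35.7%) and 1 match to TTTGAA (in 17.9%), a core of the cell cycle genes homology region. The inner start held 3 GC boxes and neither of the other motifs. These matches are letters in a window and were not compared with the position of the peak.

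E2f3 also had a weaker peak 711 bp past its 3′ end, on chromosome 13 from 29997432 to 29997732. This peak had a fold of 3.64, 98 tags, a height of 27 and a false discovery rate of 4.96%. The promoter peak was 7.51 times as high by fold, 8.93 times by height and 5.06 times by tags. The summits lay 80363 bp apart. A listed peak past the gene end in addition to a promoter peak was found at 123 of 2933 promoter genes (4.19%).

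MACS numbers the regions it calls, and in this list the numbers followed position on all 21 chromosomes. The 2 peaks of E2f3 had consecutive numbers, so the caller numbered no region between them. This was so for 45.4% of the 5646 neighbouring pairs of listed peaks. The number before them belonged to a promoter peak at Cdkal1, the neighbouring gene, with a fold of 15.97. The list leaves out 13241 of the caller's numbers, and the labels give no rule for this.

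E2f2 (ENSMUSG00000018983) had no listed promoter peak. Its only listed peak lay on chromosome 4 from 135723119 to 135723419. The TSS was 4889 bp downstream of the nearer edge of this window. The fold was 3.44, the region held 121 tags, the height was 32 and the false discovery rate was 2.82%. Of all listed peaks, 15.9% had a lower fold and 36.2% had fewer tags. The nearest other genes with a listed peak were Rpl11 and Tcea3, each past 1 gene, and their peaks were 232.0 kb apart, with 2 numbers of the caller that are not listed. The E2f2 peak was number 13289, between 13287 at Rpl11 and 13291 at Tcea3, so an unlisted number fell on each side of it. The unlisted region before it lies on the side away from the TSS. Whether the one after it lies at the E2f2 promoter is not known here.

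The RefSeq promoter of E2f2 is shown as a promoter of the family with E2F letters and no listed promoter peak. It was chosen after the motif counts were seen. It lies at chr4:136172024-136172323 on the plus strand of GRCm38.p6, with capitals as above.
E2f2 first start: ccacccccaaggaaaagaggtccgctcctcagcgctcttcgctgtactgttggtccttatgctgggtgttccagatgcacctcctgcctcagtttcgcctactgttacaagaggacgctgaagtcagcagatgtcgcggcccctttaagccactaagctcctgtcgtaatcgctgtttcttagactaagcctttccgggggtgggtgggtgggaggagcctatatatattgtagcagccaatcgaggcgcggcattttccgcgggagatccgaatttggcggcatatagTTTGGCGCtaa

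The capitals are an 8-letter match, TTTGGCGC, from 40 to 47 bases after the start. A CCAAT box lay from 13 to 9 bases before the start. A further RefSeq start, 8508 bp inside the gene, held no E2F letters. E2F letters in the promoter window therefore occurred with a listed promoter peak at E2f3 and without one at E2f2.

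E2f1, the gene of the factor that was pulled down, had 0 listed peaks. Counting outward through the RefSeq gene order of GRCm38.p6, the nearest genes with a listed peak were Mapre1 on one side, past 21 protein-coding genes, and Raly on the other, past 3. Their peaks lay 1023.0 kb apart. The caller numbered 2 regions in that span that are not listed, or 1.96 per Mb, beside 5.15 per Mb between neighbouring listed peaks over the genome. If the gene order is the same in mm9, at most 2 numbered regions around E2f1 were left out of the list, and their positions are not known. The same holds for the spans given below. The only RefSeq promoter entry of E2f1 is for a start 466 bp inside the gene and does not cover the first start, so it is not printed. It held no E2F letters and 5 GC boxes, at a GC content of 77.3%.

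The repressors that work with pocket proteins or Polycomb had no listed peak. At E2f4 the flanking listed peaks were 58.3 kb apart, at the promoters of 4931428F04Rik (fold 8.58) and Fhod1 (fold 25.17), with 2 unlisted numbers between them. At E2f5 the promoter peaks of the neighbour Lrrcc1 (fold 8.43) and of Car2 (fold 9.71) were 352.1 kb apart with 1 unlisted number. E2f6 lay between a peak past the end of Greb1 (fold 8.2) and a peak upstream of Rock2 (fold 7.69), its neighbours on both sides, 221.5 kb apart with 1 unlisted number. E2f5 and E2f6 therefore each had at most 1 numbered region that the list could have left out. The RefSeq promoter of E2f6 held none of the 5 motifs searched.

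Of the atypical repressors, E2f7 had a listed peak and E2f8 had none. The E2f7 (ENSMUSG00000020185) window lay on chromosome 10 from 110182377 to 110182677 and held the TSS. The fold was 7.72, the height 62, and the false discovery rate 0.09%. The region held 256 tags over 3381 bp, longer than 92.0% of promoter peaks. By tags the peak ranked 570 among the 2612 promoter peaks, by fold 956 and by height 1243. The reads were thus spread out, with a height of 24.2 per 100 tags, and 11.9% of promoter peaks had a lower value. The region was near symmetric, with 1666 bp before the summit and 1714 bp after it.

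The RefSeq promoter of E2f7 is shown because the summit window of its peak holds the authors' TSS. It lies at chr10:110745189-110745488 on the plus strand of GRCm38.p6, with capitals as above.
E2f7: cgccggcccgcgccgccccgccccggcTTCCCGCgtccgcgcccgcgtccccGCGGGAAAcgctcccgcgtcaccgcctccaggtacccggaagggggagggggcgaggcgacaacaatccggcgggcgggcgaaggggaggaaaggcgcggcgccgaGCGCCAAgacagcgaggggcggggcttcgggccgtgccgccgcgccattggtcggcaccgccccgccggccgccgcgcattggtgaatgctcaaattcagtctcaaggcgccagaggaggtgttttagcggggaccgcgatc

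This promoter held 3 matches to the 7-letter forms, from 223 to 217, from 198 to 192 and from 92 to 86 bases before the start. The middle one extended to the 8-letter TTTCCCGC on the opposite strand. Only 0.13% of the RefSeq promoters held at least 3. It also held 5 GC boxes and 2 CCAAT boxes. Its GC content was 75.3%, above that of 96.4% of promoters, and its part in the motif counts was not tested. The outer E2f3 start reached 2 matches at a GC content of 55.3%, near the median of 52.7%.

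**Figure D2:**
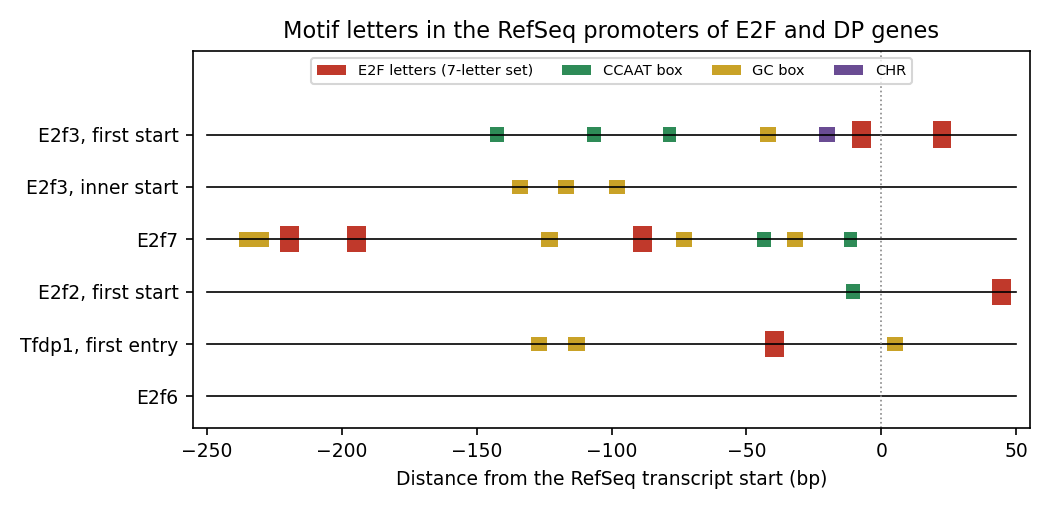
Positions of motif letters from 250 bp before to 50 bp after RefSeq starts of E2F and DP genes, with the start as a dotted line, E2F letters (7-letter forms) in red, CCAAT boxes in green, GC boxes in yellow and the CHR core in purple. The outer E2f3 start has 2 red marks beside the start and E2f7 has 3 well before it, while the inner E2f3 start and E2f6 have none.

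E2f8 had no listed peak. On one side the nearest listed peak was at the promoter of its neighbour Nav2 (fold 9.53), and on the other it was upstream of Ldhc (fold 5.05), past 23 protein-coding genes. The span was 2400.3 kb, with 10 unlisted numbers. The RefSeq promoter of E2f8 belongs to a start 477 bp inside the gene and held 1 match to a 7-letter form.

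Of the DP genes, which code for the dimer partners, Tfdp2 had a weak promoter peak and Tfdp1 none. The Tfdp2 (ENSMUSG00000032411) window lay on chromosome 9 from 96096870 to 96097170, with its summit 327 bp downstream of the TSS. It had a fold of 3.05, 106 tags and a height of 26. The caller's score, 10 times the negative log10 of p, is at least 50 in this list, and this peak had 52.18. Its false discovery rate was 7.96%, near the highest in the list, 8.57%. Only 2.14% of promoter peaks had a false discovery rate as high. The fold ranked 2586 of 2612, so the call of Tfdp2 rests on a peak near the limit of the list.

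The same peak was also listed as downstream of Gk5, the gene next to Tfdp2. Its number was followed directly by that of a promoter peak at Rnf7, 281.9 kb away, so the caller numbered no region in between. RefSeq gives promoters of Tfdp2 only for starts 62459 and 63002 bp inside the gene as that table draws it. They held none of the 5 motifs and are not shown.

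Tfdp1 lay in a span of 1005.3 kb between promoter peaks at Tubgcp3 (fold 20.11) and Rasa3 (fold 10.58), with 2 unlisted numbers. Between it and Tubgcp3 lay 12 protein-coding genes. Its RefSeq promoters, 2 overlapping windows with GC contents of 78.0% and 80.7%, shared 1 match to the 8-letter TTTCGCGC on the opposite strand. Like E2f2 and E2f8, Tfdp1 thus had E2F letters without a listed promoter peak, while E2f3 and E2f7 had both. The E2f8 letters are those at a start 477 bp inside the gene. Tfdp2 had a promoter peak and no E2F letters, but its entries are only for starts far inside the gene. Over the 6 genes with no listed peak, the flanking spans came to 5060.5 kb with 18 unlisted numbers, or 3.56 per Mb. Single spans differed widely, from 1.96 per Mb at E2f1 to 34.31 per Mb at E2f4, the shortest span.

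**Figure D3:**
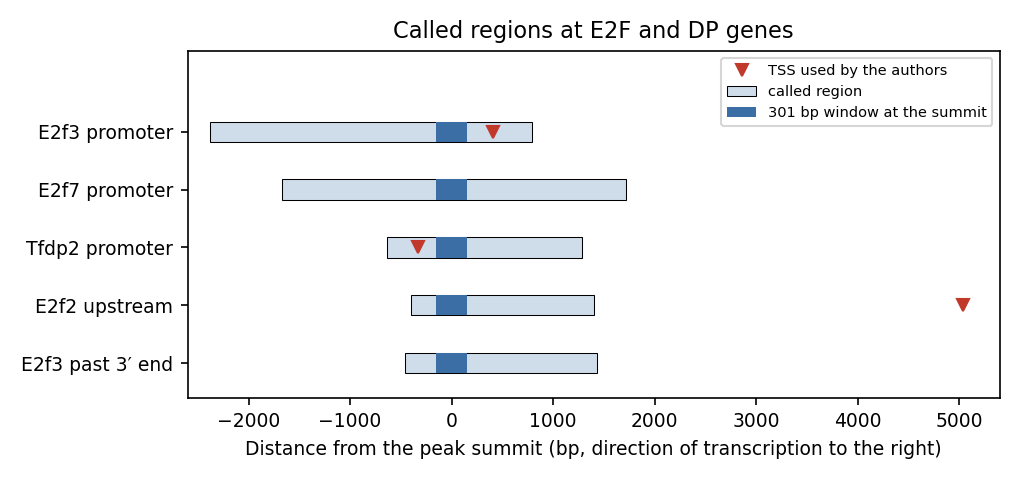
Called regions at E2F and DP genes as bars around the summit, in bp with the direction of transcription to the right, with the 301 bp summit window in dark blue and the TSS used by the authors as a red triangle where its distance is given. The E2f3 promoter region reaches 2383 bp before and 797 bp after its summit, the E2f7 region is near symmetric with the TSS somewhere in its window, and the E2f2 TSS lies 5040 bp from the summit, outside the region.

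Across all genes, E2F letters were more frequent in the RefSeq promoters of genes with a listed promoter peak. A 7-letter form was in 26.6% of their 2910 promoters and in 7.9% of the 29941 others. An 8-letter form was in 8.2% and 1.7%. The GC box was in 68.4% and 32.5%, CCAAT in 46.3% and 36.5%, and TTTGAA, lower in the first group, in 13.2% and 18.3%. Median GC contents were 60.7% and 52.0%, so base composition moved with the E2F letters and its part was not tested. Of the family, 8 genes had a RefSeq promoter entry, with 12 entries in all, and E2f4 and E2f5 had none.

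The partners and regulators of E2F were read from a list of 42 genes of the pathway. Of these, 14 (33.3%) had a promoter peak, beside 13.1% of protein-coding genes, a further 10 had only peaks elsewhere, and 18 had none. Any listed peak was thus found at 24 of 42, beside 24.7% of protein-coding genes. Their median fold at promoters was 12.18, beside 7.72 for the 3 family genes and 6.48 for all promoter peaks. The members were chosen with results of these data known, so the counts are a description.

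Pocket proteins hold E2F in check, and 2 of their 3 genes (66.7%) had promoter peaks, beside 13.1% of protein-coding genes. Rbl1, the gene of p107, had a fold of 11.72 with 412 tags, between the folds of E2f3 and E2f7. Rb1, the retinoblastoma gene, had a fold of 4.54 with 251 tags, nearly the tag count of E2f7. Rbl2, the gene of p130 and the usual partner of E2F4, had no listed peak, and neither had E2f4. Of the MuvB core and its partners, which act at cell cycle promoters, 4 of 8 genes had promoter peaks. Their folds were 18.85 at Mybl2, 15.35 at Rbbp4, whose peak is shared with Zbtb8os, 5.57 at Lin37, whose peak is shared with Psenen, and 5.34 at Lin54. Lin9, Mybl1 and Foxm1 had none.

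Cyclins and kinases of G1 and S phase inactivate the pocket proteins, and 4 of 10 genes had promoter peaks. Cdc25a, a phosphatase that activates these kinases, had a fold of 31.66, above that of E2f3. Ccne1, coding for cyclin E1, followed with 17.26, Cdk2, its kinase, with 12.61 at a peak shared with Pmel, and Ccna2, coding for cyclin A2, with 7.36, close to E2f7. Ccnd1 and Ccnd3, coding for D-type cyclins, had no promoter peak by the rule of summit distance used here. The stronger of the 2 Ccnd1 peaks lay 3489 bp upstream of the TSS with a fold of 7.64. The other Ccnd1 peak is in the authors' own promoter class, by which 15 pathway genes, Ccnd1 among them, had a promoter peak. The single Ccnd3 peak, shared with Taf8, lay 2886 bp upstream with a fold of 4.38. Ccnd2, Cdk4 and Ccne2 had none.

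CDK inhibitors oppose these kinases, and 2 of 7 (28.6%) had promoter peaks, beside 13.1% of protein-coding genes. Cdkn2d, which codes for p19Ink4d, had a fold of 35.39 with 400 tags, the highest of the pathway genes and rank 12 of all promoter peaks. Cdkn2a had a fold of 8.98. Cdkn1a, the gene of p21, had 3 listed peaks and none at the promoter, the strongest with a fold of 13.63 inside the gene, 2455 bp from the TSS. Cdkn1c, Cdkn2b and Cdkn2c had none.

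Of 9 genes of the Polycomb complex that holds E2F6, only L3mbtl2 had a promoter peak, with a fold of 11.74. Pcgf6, Mga and Rnf2 had peaks elsewhere with folds of up to 4.48, and Max, Ring1, Rybp, Yaf2 and Cbx3 had none, like E2f6 itself. The share of this group, 11.1%, was near the 13.1% of all protein-coding genes. Of 5 ubiquitin ligase subunits that act in the cell cycle, Skp2 had a promoter peak with a fold of 18.94, shared with Lmbrd2. Ccnf, Fzr1 and Cdc20 had none.

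**Figure D4:**
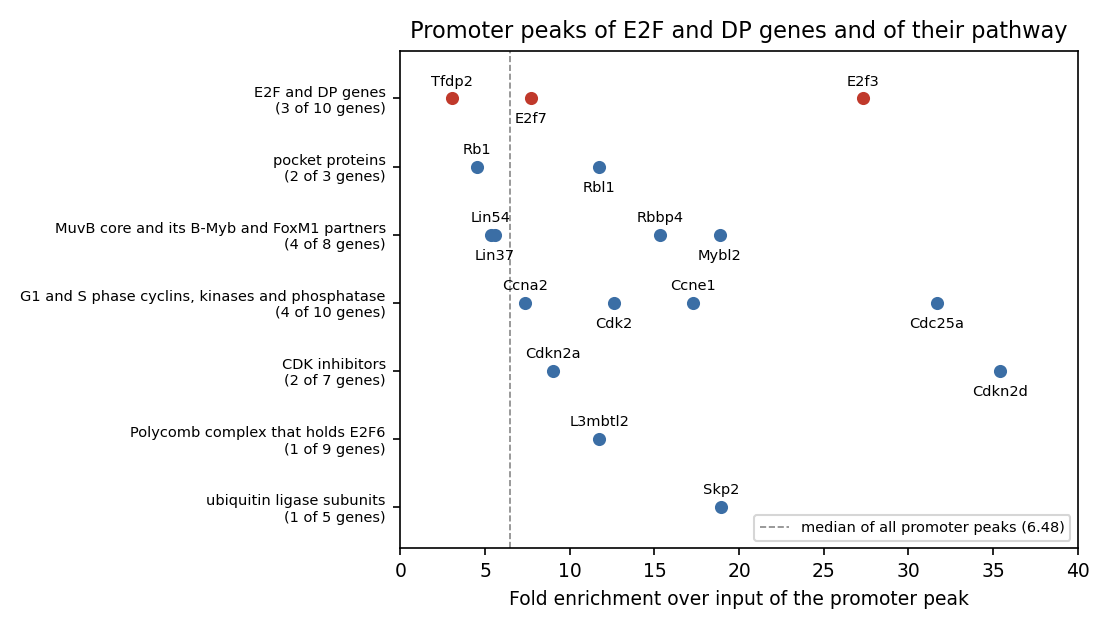
Fold enrichment over input of the promoter peaks at E2F and DP genes (red) and at 6 groups of pathway genes (blue), 1 point for each gene with such a peak, with the number of genes that have one beside each group and the median of all promoter peaks, 6.48, as a dashed line. E2f3 lies among the highest points together with Cdc25a and Cdkn2d, and Tfdp2 is the lowest point.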

How the data were processed

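Reads were aligned with Bowtie2 (2.1.0) to mm9 (NCBIM37), per the submitters' processing notes, and MACS called the peaks, per the file headers. The labels do not give its settings or say whether replicates were pooled first. Deposited values per peak are a tag count, a pileup signal (height), the authors' fold as a ratio to the input background, a score of 10 times the negative log10 of p, and a false discovery rate in percent, per the file headers. A further deposited column whose meaning is not given was not used. Read totals, and so the depth of each library, are unknown.

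Members, pathway genes and rules were chosen with earlier results of these data known. The named genes are all 10 members and, of the pathway list, those with a promoter peak and those without a listed peak. A few pathway genes with peaks elsewhere, and the genes that flank members, were also named, after their values were seen. Of the promoters meant to be shown, those of E2f1 and Tfdp2 were not printed because their RefSeq entries are only for starts inside the gene, and E2f2 was added.

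Genes are those the authors assigned within 20000 bp. A distance on entries past a gene end was taken as that to the end. Of 5587 symbols, 5492 (98.3%) matched a RefSeq table of GRCm38.p6, used for names, coding status and gene order. Promoter sequences are from RefSeq (GRCm38.p6). Motifs were searched on both strands with Python 3.11.15 and pandas 2.3.3, and the search was tested on simulated data. Coordinates count from 1. No protein sequences were used here.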

Additional observations from a re-analysis of the deposited data

How the results depend on the processing

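Of 10 family genes, 4 had any listed peak. This count was 2 in the 2833 peaks with the lowest p, 2 in the 1416 peaks with the highest fold, and 2 at a false discovery rate of at most 1%, where only E2f3 and E2f7 remained. In these settings 14.4%, 7.51% and 11.7% of protein-coding genes had a peak. The count of promoter genes went from 3 to 2 in the same settings, by loss of Tfdp2, beside 9.34%, 5.48% and 8.02% of protein-coding genes. It was 3 with promoters of 500 or 5000 bp (11.4% and 15.3% of protein-coding genes). It was also 3 with the authors' promoter class (13.2%) and with only the gene closest to each peak (11.7%). With synonyms matched it was 3 as well (13.1%), but the main share already used synonyms, so this setting adds little. For the 42 pathway genes the count of 14 ranged from 11, among the peaks with the highest fold (5.48% of protein-coding genes), to 17, with promoters of 5000 bp (15.3%). The 3 stricter lists hold fewer peaks by construction. No paired analysis was possible because the single peak list is not split by replicate, and for the same reason no replicate could be left out. Depth limits are unknown, and a gene with no listed peak is not shown to be unbound.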
